A study of Mus musculus with 11 samples.

Results

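The fatty acid uptake and binding genes are a set of 10 genes that were listed by name: Cd36, Lpl, Gpihbp1, Angptl4, Fabp3, Fabp4, Fabp5, Slc27a1, Slc27a2 and Slc27a4. All 10 were found among the 29955 gene symbols of the RNA-seq files, and each was represented by the sense transcript that the files mark as representative. Values are FPKM, fragments counted per length of exon and per size of the library, so levels of different genes can be set side by side. The RNA came from im-scWAT cells, a preadipocyte line made from stromal cells of mouse inguinal subcutaneous white fat with a retrovirus for SV40 large T antigen. A time course of 6 samples had 2 samples of day 0 preadipocytes, and 1 sample each of days 4 and 8 with rosiglitazone (ROS, a PPARγ ligand, 0.5 μM; beige condition) and without it (white condition). The day 0 samples carry the labels ROS plus and ROS minus, although ROS was added only with induction, and they were taken as 1 group that gives the only spread behind the limma p-values of the time course. All cells of days 4 and 8 had received the adipogenic mixture of indomethacin, dexamethasone, isobutylmethylxanthine, insulin and T3. The remaining 5 samples, all of day 8 with ROS, carried a U6-driven shRNA against mouse Jmjd1a together with retroviral, LTR-driven human JMJD1A. The human protein was wild-type in 2 samples (WT A and WT B), S265A in 1, where the phosphorylated serine is lost, phosphomimetic S265D in 1, and S265D-H1120Y in 1, where the catalytic histidine is also replaced. By the sample labels ROS was left out between days 7 and 8, whereas the methods of the study keep it to day 8. All samples came from this line and the labels do not say whether they were separate cultures, so p-values measure only the spread between these samples, which may be technical.

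Adipocytes take up most of their fatty acids from circulating triglyceride. Lipoprotein lipase, encoded by Lpl, is secreted by the adipocyte and cuts triglyceride in lipoproteins, GPIHBP1 of capillary endothelial cells carries the enzyme across and holds it at the vessel wall, and ANGPTL4 inactivates it. The scavenger receptor CD36 and the fatty acid transport proteins of the Slc27a family, which also have acyl-CoA synthetase activity, bring the released fatty acids into the cell. There the small fatty acid binding proteins carry them to storage, to oxidation and to nuclear receptors. FABP4 is the abundant adipocyte form, FABP5 the epidermal form and FABP3 the heart form, which is also high in brown fat. Several of these genes are textbook targets of PPARγ.

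The mapped bases behind the FPKM values came to between 3.10 and 5.29 Gb per sample. Kdm3a, the mouse Jmjd1a gene, had 13.0 to 28.5 FPKM in the 5 samples labelled with the shRNA and 15.1 to 23.2 in the time course. Reads of the human transgene were not separated from it, so this value does not check the labels. Adipocyte markers (Adipoq, Plin1, Cidec, Lep, Cfd, Retn and Lipe) summed to 2.58 and 2.75 FPKM at day 0 and to between 1687 and 5478 in all later samples, where 6 of the 7 reached an FPKM of 1 and Lep did not. Of 7 endothelial markers only Pecam1 reached an FPKM of 1, Cldn5 was listed at 0 in all samples, and the sum ran from 0.422 to 4.05. The 6 macrophage markers summed to between 0.602 and 22.0 FPKM, nearly all of it Cd68, with Emr1 and Ptprc listed at 0 throughout. The 6 hepatocyte markers summed to between 0.539 and 4.01. The 2 samples of day 0 lay close together, with 4.9% of 15030 genes 2-fold or more apart. WT A and WT B did not, with 27.2% of 15837 genes 2-fold apart, and the labels do not say whether they belong to the same experiment. In whole cultures, fewer cells of a type and less RNA per cell cannot be told apart.

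The members lie on 7 chromosomes, with coordinates given for mm9, the build of the files. Fabp5 (chr3:10012606-10016610) and Fabp4 (chr3:10204343-10208576) belong to a cluster, with 187732 bases between them in which Pmp2 and Fabp9, encoding further binding proteins, also lie. Pmp2 and Fabp9 reached at most 0.952 and 1.32 FPKM, and Fabp4 beside them reached 31402. Promoter sequence was found in the RefSeq table (build GRCm38.p6) for 5 of the 10 genes, and the entries of Lpl, Gpihbp1, Angptl4, Fabp4 and Fabp5 were missing. The 250 bases before the annotated start are given for Cd36 and Fabp3, the genes with the widest range over the samples, and for Slc27a1 and Slc27a4, a pair of transporter genes that behaved differently. In GRCm38.p6 they lie at chr5:17835897-17836146 on the minus strand for Cd36 and, on the plus strand, at chr4:130308488-130308737 for Fabp3, chr8:71568621-71568870 for Slc27a1 and chr2:29802384-29802633 for Slc27a4. Capitals mark matches, on either strand, to 4 motifs, which are the half-site AGGTCA of nuclear receptors, the box CCAAT, the GC box GGGCGG and the TATA box TATAAA.
Cd36: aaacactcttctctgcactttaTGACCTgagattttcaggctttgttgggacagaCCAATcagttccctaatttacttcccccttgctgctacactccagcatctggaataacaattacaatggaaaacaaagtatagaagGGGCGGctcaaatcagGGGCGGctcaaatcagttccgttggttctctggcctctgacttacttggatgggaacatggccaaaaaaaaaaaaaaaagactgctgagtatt
Fabp3: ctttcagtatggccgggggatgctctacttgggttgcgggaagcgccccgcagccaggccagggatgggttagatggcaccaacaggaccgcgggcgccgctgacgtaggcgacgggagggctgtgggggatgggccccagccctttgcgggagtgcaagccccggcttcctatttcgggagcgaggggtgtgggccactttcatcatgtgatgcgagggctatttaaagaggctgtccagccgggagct
Slc27a1: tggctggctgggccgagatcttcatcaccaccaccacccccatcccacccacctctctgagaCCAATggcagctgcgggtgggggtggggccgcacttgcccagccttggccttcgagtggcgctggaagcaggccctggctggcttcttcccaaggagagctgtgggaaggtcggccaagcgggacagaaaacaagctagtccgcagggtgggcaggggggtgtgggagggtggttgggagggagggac
Slc27a4: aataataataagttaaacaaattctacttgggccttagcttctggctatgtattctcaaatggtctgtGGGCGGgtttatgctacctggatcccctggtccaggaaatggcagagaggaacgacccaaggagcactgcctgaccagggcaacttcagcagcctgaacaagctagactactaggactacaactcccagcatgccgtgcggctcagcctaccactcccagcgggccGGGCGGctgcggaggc

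The Cd36 sequence held 1 half-site on the reverse strand at 228 bases before the start, a CCAAT box at 195, and GC boxes at 109 and 93. It was poor in CpG, with 3 against a median of 6 over all 32851 promoters, and 29.0% of promoters had fewer. Fabp3 matched none of the 4 motifs and had 17 CpG. The Slc27a1 sequence, the first of 3 annotated for this gene, had a CCAAT box at 188 bases, and Slc27a4 had GC boxes at 182 and 16 bases. These printed sequences of Slc27a1 and Slc27a4 both had 8 CpG. The further Slc27a1 sequences, not printed, also held GC boxes, at 139 bases in the second and at 159, 48 and 17 in the third. The third had a CCAAT box at 128 bases. Such short motifs are frequent: AGGTCA stood in 14.0% of all promoters of this length, CCAAT in 33.8%, GGGCGG in 32.7% and TATAAA in 12.4%. The exact repeat AGGTCANAGGTCA, a form of the element that PPAR and RXR dimers bind, stood in 0.0335% and in none of the members' sequences, which says only that these letters are not in this window. Each of the 4 sequences also occurs once on the same chromosome of mm9 in the orientation of the gene, and other chromosomes were not searched for it. The Cd36 sequence there begins the transcript uc008wnn.2, while the representative transcript uc012dsl.1 starts 53063 bases further upstream.

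To see how the uptake pathway was switched on during differentiation, the day 0 preadipocytes were compared with days 4 and 8. Lpl, Cd36, Fabp4 and Fabp5 rose steeply by day 4, Angptl4 and Slc27a4 rose less, and Slc27a1 stayed near its preadipocyte level unless ROS was present at day 8. Gpihbp1 and Slc27a2 were at or next to 0. The limma tests against day 0 used log2(FPKM + 0.1) and averaged the samples with and without ROS. Of the 9 members that could be tested, 8 were higher at day 8 than at day 0, beside 26.6% of the 16400 genes tested. Cd36 and Gpihbp1 passed the minimum FPKM of 0.1 only through the later samples and so had to differ, which leaves 6 of 7. None of the 9 was lower in this average, beside 25.2%. For day 8 without ROS alone, the log2 change was −2.19 ± 0.20 for Fabp3 and −0.17 ± 0.07 for Slc27a1. At day 4, again averaged, 6 members were higher, Cd36 among them, beside 22.0% of all genes, and 1, Fabp3, was lower, beside 21.7%.

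Lpl (chr8:71404454-71430831) stood at 16.7 and 13.1 FPKM in the 2 samples of day 0. It reached 1083 without ROS and 1032 with ROS at day 4, and 658 and 807 at day 8. All 4 later samples were far above both preadipocyte samples, and the conditions differed by at most 1.23 times. The log2 change from day 0, averaged over both conditions, was 6.15 ± 0.18 (SE) at day 4 and 5.62 ± 0.18 at day 8 (limma adjusted p = 0.0173 and 0.0147). By rank of FPKM, Lpl was among the 105 highest genes in each differentiated sample of the time course, and it held place 27 at day 4 without ROS.

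Angptl4 (chr17:33911845-33918520), which encodes the inhibitor of that enzyme, was already expressed in preadipocytes at 61.5 and 68.5 FPKM. It reached 144 and 225 at day 4 without and with ROS, and 115 and 508 at day 8. Every later sample was above both day 0 samples, and the highest value belonged to the beige condition. The log2 change was 1.47 ± 0.09 at day 4 and 1.90 ± 0.09 at day 8 (limma adjusted p = 0.0223 and 0.0164). With the ROS label of all 6 samples, day 0 included, as a block, neither call was kept (adjusted p = 0.107 and 0.0508). These changes average both conditions. Taken apart at day 8, the log2 change was 2.97 ± 0.11 with ROS and 0.83 ± 0.11 without, and the latter was not called. The ratio of Lpl to Angptl4 FPKM went from 0.271 and 0.191 at day 0 to 7.54 and 4.58 at day 4. At day 8 it was 5.70 without ROS and 1.59 with ROS.

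Gpihbp1 (chr15:75427088-75428643), the endothelial partner of the lipase, was listed at 0 in 8 of the 11 samples. The other 3 values were 0.0404 at day 4 without ROS and 0.201 and 0.220 at day 8, which rest on 100, 695 and 892 mapped bases. Its limma log2 change at day 8 (1.63 ± 0.05) comes from these few bases. The 7 endothelial markers summed to 0.539 and 0.448 FPKM at day 0, to 0.580 and 0.422 at day 4 without and with ROS, and to 1.18 and 0.527 at day 8. Of these, Kdr was at 0.567 without ROS and 0.0216 with ROS at day 8, against 0.0705 and 0.0747 at day 0. Emcn was listed at 0 at day 0 and stood at 0.0967 and 0.0828 at day 8. Tek was at 0.339 and 0.294 at day 0, and at 0.413 without ROS and 0.198 with ROS at day 8. Vwf was at 0.05551 and 0.02675 at day 0 and lower, at 0.01816 and 0.01774, at day 8. Pecam1 was at 0.0687 and 0.0526 at day 0 and at 0.0827 and 0.207 at day 8. Cldn5 was listed at 0 and Cdh5 was at most 0.0100 in all samples. The part of these markers in the Gpihbp1 values was not tested.

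**Figure D1:**
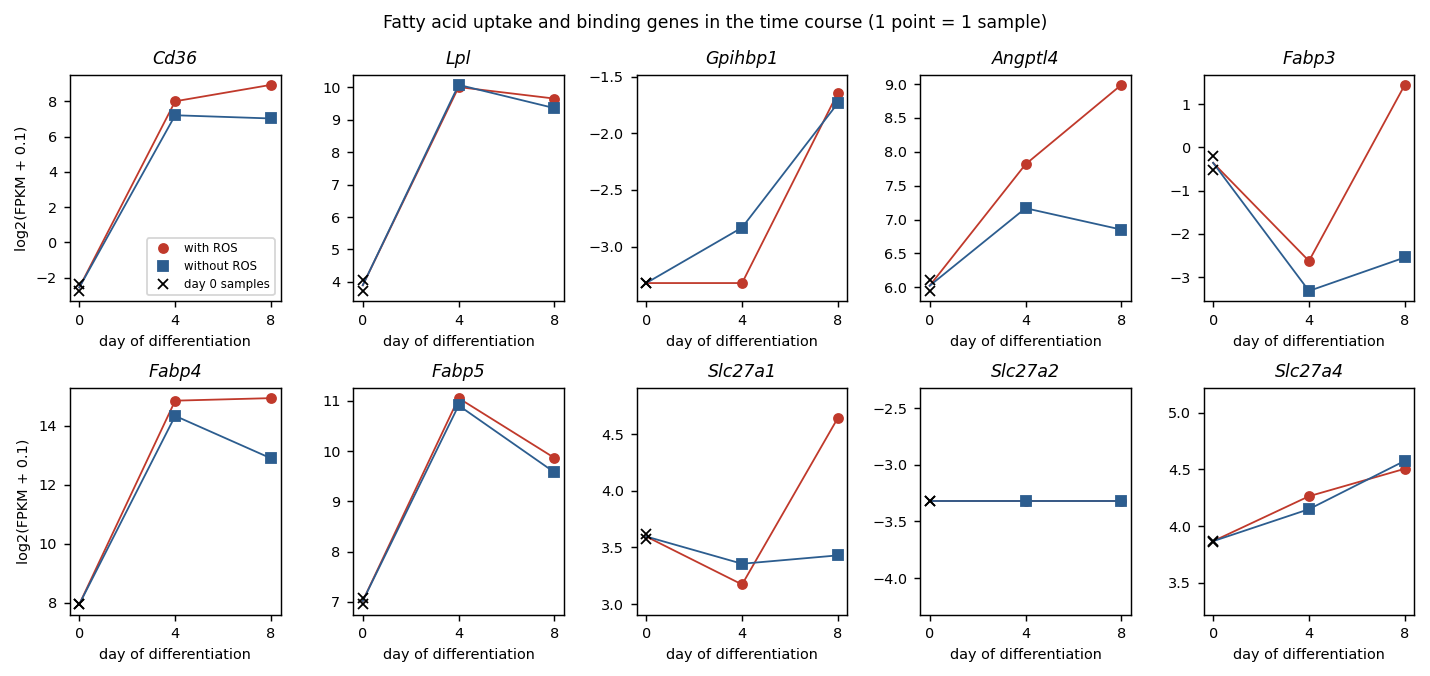
Each panel plots log2(FPKM + 0.1) of a gene against the day of differentiation, with a cross for each day 0 sample, a circle for the sample with ROS and a square for the sample without it. Lines start at the day 0 mean, and each panel has its own vertical scale. Lpl and Fabp5 run together with and without ROS, whereas Cd36, Angptl4, Fabp4, Fabp3 and Slc27a1 part by day 8.

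Cd36 (chr5:17287508-17394777) showed the widest change of the set. Its FPKM of 0.0957 and 0.0480 at day 0 rest on 1591 and 795 mapped bases. The values were 148 and 256 at day 4 without and with ROS, and 130 and 489 at day 8, all above day 0. The log2 change was 10.16 ± 0.21 at day 4 and 10.54 ± 0.21 at day 8 (limma adjusted p = 0.0173 and 0.0145). In rank it moved from place 14787 and 15484 among all genes at day 0 to place 186 at day 8 with ROS.

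Among the transport proteins, Slc27a4 (chr2:29658200-29673042) had the narrowest range of all expressed members. It was at 14.5 FPKM in both day 0 samples, 17.6 and 19.1 at day 4 without and with ROS, and 23.7 and 22.6 at day 8. The 4 later values were above day 0, by 0.34 ± 0.05 on the log2 scale at day 4 (limma adjusted p = 0.0498) and by 0.67 ± 0.05 at day 8 (0.0216). The day 4 call was lost with another scaling of the samples (limma adjusted p = 0.0748) and with the ROS label as a block (0.182).

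Slc27a1 (chr8:74092826-74110607), encoding the insulin-responsive transporter of muscle and fat, was at 11.8 and 12.2 FPKM at day 0. It stood at 10.1 and 8.92 at day 4 without and with ROS, 10.7 at day 8 without ROS and 24.9 at day 8 with ROS. Only this last sample was above day 0, and the other 3 were below. The averaged log2 change at day 8 was 0.44 ± 0.06 (limma adjusted p = 0.0373), made up of 1.05 ± 0.07 with ROS (adjusted p = 0.0215) and −0.17 ± 0.07 without (0.195). The average was not stable to the choice of transcript, since it was 0.10 (limma adjusted p = 0.244) when the transcript with the highest mean FPKM stood for the gene, and with the ROS label as a block the adjusted p was 0.395. Slc27a2 (chr2:126378760-126413979), the form of liver and kidney, was listed at 0 in all 11 samples.

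Fabp4 became the most abundant transcript of these cells. It was at 248 and 249 FPKM at day 0, and at 20694 and 29590 at day 4 without and with ROS. At day 8 it was at 7631 without ROS and 31402 with ROS. All later samples were above day 0, with a log2 change of 6.64 ± 0.05 at day 4 and 5.96 ± 0.05 at day 8 (limma adjusted p = 0.0173 and 0.0145). By rank it went from place 286 and 302 at day 0 to place 1 in both day 4 samples and at day 8 with ROS, and it was at place 3 at day 8 without ROS.

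Fabp5 followed at a lower level and peaked at day 4. The values were 124 and 136 FPKM at day 0, 1926 and 2129 at day 4 without and with ROS, and 765 and 933 at day 8. The log2 change from day 0 was 3.96 ± 0.08 at day 4 and 2.70 ± 0.08 at day 8 (limma adjusted p = 0.0173 and 0.0145). Day 8 was 0.397 times day 4 without ROS and 0.438 times with ROS. However, no gene passed the test of day 8 against day 4, averaged over both conditions. In that test 5772 genes had an unadjusted p under 0.05 by limma (smallest adjusted p = 0.103). Fabp4 exceeded Fabp5 by 2.00 and 1.83 times at day 0, and by 10.7 and 13.9 times at day 4 without and with ROS. At day 8 this ratio was 9.98 without ROS and 33.7 with ROS.

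Fabp3 (chr4:129986022-129992707) ran the other way at first. It was low at day 0, at 0.601 and 0.772 FPKM, listed at 0 at day 4 without ROS and at 0.0618 with ROS. At day 8 it was 0.0712 without ROS and 2.63 with ROS. The 3 lowest values rest on 0, 200 and 198 mapped bases, and the beige sample of day 8 was the only later one above day 0. The log2 change was −2.62 ± 0.17 at day 4 (limma adjusted p = 0.0224, and 0.120 with the ROS label as a block) and −0.19 ± 0.17 at day 8 (adjusted p = 0.416). Taken apart, the conditions lay on opposite sides of day 0, at 1.81 ± 0.20 with ROS and −2.19 ± 0.20 without (limma adjusted p = 0.0348 and 0.0370), both set against the same day 0 samples. Without a minimum FPKM neither passed (adjusted p = 0.0640 and 0.0615).

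Counted without a model, 6 of the 9 members had all 4 later samples above both day 0 samples (Cd36, Lpl, Angptl4, Fabp4, Fabp5 and Slc27a4), beside 31.0% of 16400 genes. Cd36 passed the minimum FPKM only through later samples, which favours this outcome, so it adds nothing to the count. None had all 4 below, beside 30.8%. The limma calls take their spread from the day 0 pair alone, with 1 residual degree of freedom. No spread is left in that fit when either day 0 sample is left out. In a fit of all 11 samples, which has 2 residual degrees of freedom, from the day 0 and the WT pair, leaving out either day 0 sample leaves the WT pair alone, whose samples were 2-fold apart in 27.2% of genes, and the lone day 0 sample is assumed to vary like them. Limma then called 0 genes at day 8 (2271 and 2452 at an unadjusted p under 0.05) and no member kept its call, while the members' log2 changes moved by at most 0.20. With both kept, that fit called 6 members higher at day 8, all but Slc27a1 and Slc27a4 of the 8, beside 8.71% of 17075 genes, and these include Cd36 and Gpihbp1, which passed the minimum only through later samples. At day 4 it called 4 members higher, Cd36 among them, beside 4.96%, and Angptl4, Fabp3 and Slc27a4 lost the call.

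The other genes of the pathway, taken from lists and not for how they moved, are given beside the shares of all genes, 26.6% higher and 25.2% lower at day 8. Of 11 tested genes that regulate or assist lipoprotein lipase, 8 were higher and 3 lower at day 8, with a median log2 change of 1.64 against −0.03 over all genes. Apoc1 and Apoc3, which encode lipoprotein apolipoproteins that restrain lipolysis, were listed at 0 in both day 0 samples and at 299 and 111 FPKM at day 8 with ROS. Apoc2, the cofactor of the lipase, was listed at 0 at day 0 and stood at 3.75 in that sample, and Gm6484, the older name of Angptl8, was at 0.0987 and 0.0498 at day 0 and at 10.2 at day 8 with ROS. These 4 genes passed the minimum only through later samples and so had to differ. Of the 7 without them, 4 were higher and 3 lower, with a median log2 change of 0.40. Lrp1, encoding a receptor that takes up lipoprotein remnants, fell, with a log2 change of −1.73 ± 0.06, and Furin, encoding a protease that cleaves the lipase, was at −0.50 ± 0.06 (adjusted p = 0.0358).

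Among 6 tested genes of membrane transport and caveolae, 2 were higher and none lower at day 8. They were Cav1 and Cav2, which encode caveola proteins, with log2 changes of 1.23 ± 0.06 and 2.15 ± 0.28. Of 9 further binding protein genes, 3 were higher and 4 lower, and of the 6 that reached the minimum at day 0 (all but Fabp9, Fabp12 and Pmp2), 2 were higher and 4 lower. Rbp4, an adipokine that carries retinol, had a log2 change of 5.53 ± 0.50, and Dbi, the acyl-CoA binding protein, of 1.73 ± 0.07, whereas the retinoic acid binding genes Crabp1 and Crabp2 were at −5.36 ± 0.09 and −5.80 ± 0.16. Of the 6 acyl-CoA synthetase genes, 1 was higher and 2 lower. Acsl1, the main form of adipocytes, went from 8.94 and 8.65 FPKM at day 0 to 423 at day 8 with ROS, while Acsbg1 fell by 5.33 on the log2 scale. Of the 6 PPAR and RXR genes, 5 were higher and none lower, and of the 4 that reached the minimum at day 0 (all but Ppara and Rxrg), 3 were higher, with Pparg at a log2 change of 3.23 ± 0.05 and Rxrg, listed at 0 at day 0, at 13.5 FPKM at day 8 with ROS.

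To compare beige with white adipocytes, samples with and without ROS were set against each other on the same day, with 1 sample per condition. At day 8, 5 of 9 members were at least 2-fold higher with ROS, beside 4.0% of 15536 genes, and none was 2-fold lower, beside 15.2%. Fabp3 was 37.0 times higher, Angptl4 4.40 times, Fabp4 4.11 times, Cd36 3.75 times and Slc27a1 2.33 times. Lpl (1.23 times), Fabp5 (1.22 times), Gpihbp1 (1.10 times) and Slc27a4 (0.952 times) were within 2-fold. Fabp3 passed the minimum only through the sample with ROS. Its ratio rests on 198 mapped bases without ROS and 8568 with ROS, and the log2 value went from 5.21 to 1.76 when 1 was added to each FPKM. Scaling the samples by the median of ratios moved the median log2 ratio of all genes at day 8 from −0.22 to −0.03, and Slc27a4 then lay above 0 (log2 ratio 0.12) in place of −0.07. With that scaling 31.7% of the 2-fold differences were higher with ROS, and without it 20.8%.

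At day 4 the same comparison gave smaller ratios. None of the 7 members with a ratio was 2-fold higher, beside 2.2% of 15246 genes, and none was 2-fold lower, beside 4.51%. Cd36 was 1.73 times higher with ROS, Angptl4 1.57 times and Fabp4 1.43 times. These were the abundant genes that were also 2-fold higher at day 8. Slc27a1, which was 2.33 times higher at day 8, was 0.880 times at day 4. None of the 7 members compared between the 2 samples of day 0 was 2-fold apart, and their ratios lay between 0.782 and 1.28.

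**Figure D2:**
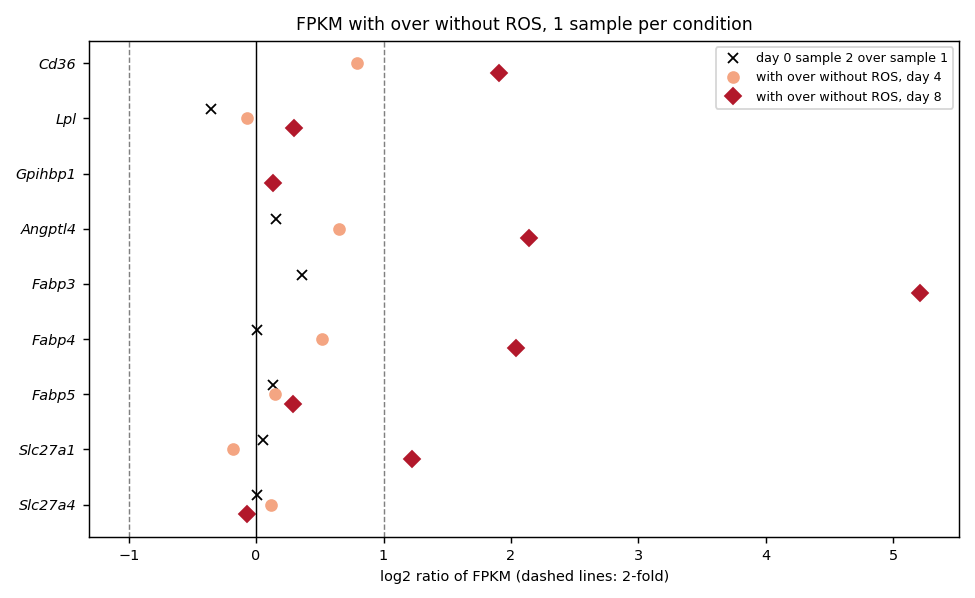
Each row shows the log2 ratio of FPKM of a gene for sample 2 over sample 1 of day 0 (cross), and with over without ROS at day 4 (circle) and day 8 (diamond), with dashed lines at 2-fold. At day 8, 5 genes lie right of the line (Cd36, Angptl4, Fabp3, Fabp4 and Slc27a1), none does at day 4, and the day 0 pair lies between −0.35 and 0.36.

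In limma, where the spread again comes from the day 0 pair, 0 of 16400 genes passed for ROS at day 8, and 5011 had an unadjusted p under 0.05. The adjustment gave the smallest limma adjusted p, 0.0972, to many genes at once, so it does not single out the members. Among those genes were Angptl4 (log2 change 2.14 ± 0.13), Fabp3 (4.00 ± 0.23), Fabp4 (2.04 ± 0.07) and Slc27a1 (1.21 ± 0.08). Cd36 was at 0.125 (1.91 ± 0.29). When the minimum FPKM was raised to 1, the same test called 4 of 8 members higher, Angptl4, Fabp3 and Fabp4 (adjusted p = 0.0466) and Slc27a1 (0.0474), beside 1.24% of 13159 genes. Fabp3 reached that minimum in the day 8 sample with ROS alone. None was lower, beside 5.56%. Averaged over days 4 and 8, limma again called 0 genes for ROS (4605 unadjusted, smallest adjusted p = 0.113). At day 4 alone it called 0 (1862 unadjusted, smallest adjusted p = 0.417). The difference between the ROS effects of the 2 days was not shown for any gene (0 called, 2763 unadjusted), and it was 1.52 ± 0.10 on the log2 scale for Fabp4, 1.49 ± 0.18 for Angptl4 and 1.40 ± 0.11 for Slc27a1 (adjusted p = 0.256, 0.257 and 0.256).

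From day 4 to day 8, the 2 conditions went apart in Fabp4, Cd36 and Angptl4. With ROS, Fabp4 was 1.06 times, Cd36 1.91 times and Angptl4 2.26 times the day 4 level. Without ROS the same genes stood at 0.369, 0.881 and 0.803 times. Lpl was below its day 4 level in both conditions, at 0.782 times with ROS and 0.607 times without. These ratios compare single samples within 1 condition and were not tested. The limma test of day 8 against day 4 averaged both conditions, where opposite moves cancel, and it called 0 genes. The summed beige markers (Ucp1, Cidea, Ppargc1a, Elovl3, Cox8b, Prdm16 and Dio2) were 51.0 FPKM without ROS and 225 with ROS at day 8, and the summed preadipocyte markers, mostly Ly6a, were 555 and 132. The part of these cells in the ROS ratios was not tested. Among other pathway genes above an FPKM of 1, Ppara (2.28 without and 9.77 FPKM with ROS) and Acsl1 (175 and 423) were 2-fold higher with ROS at day 8, and Crabp1 (1.39 and 0.132) was 2-fold lower. Pparg itself was at 0.604 times. At day 4 Crabp1 was again lower with ROS, at 0.246 times.

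The transduced cells were used to ask whether phosphorylation of JMJD1A at S265 and its demethylase activity bear on these genes. All 8 expressed members were measured at day 8 with ROS in each of the 5 samples, and Gpihbp1 and Slc27a2 were listed at 0 in all 5. More members were 2-fold apart within the WT pair than in any comparison with a mutant. They were 4 of 8, beside the 27.2% of all genes. Fabp3 had 33.0 FPKM in sample A and 2.20 in sample B of the pair, and Slc27a1 had 51.6 and 13.5. Lpl (406 and 849) and Fabp4 (12393 and 26902) went in the opposite direction, higher in WT B.

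Fabp3 was 3.52 FPKM in S265A, 3.58 in S265D and 15.7 in S265D-H1120Y. S265A and S265D thus lay next to WT B and next to the untransduced beige sample (2.63), and WT A and S265D-H1120Y stood apart. Set against the WT mean of 17.6 ± 21.8 (SD, n = 2), the ratio was 0.200 for S265A and 0.204 for S265D. Against WT B alone it was 1.60 and 1.63, and against WT A alone 0.107 and 0.109. The direction therefore depended on which WT sample was used. S265D-H1120Y was 4.39 times S265D.

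Slc27a1 was 12.1 FPKM in S265A, 16.9 in S265D and 6.64 in S265D-H1120Y, where the WT mean was 32.6 ± 27.0 (SD, n = 2). S265A was 0.373 times and S265D 0.520 times this mean, but 0.900 and 1.25 times WT B. S265D-H1120Y was 0.392 times S265D and had the lowest value of the gene in any of the 11 samples. The ratio of Slc27a1 to Slc27a4 ran from 0.325 in S265D-H1120Y to 2.38 in WT A, which is the whole range of the series.

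The abundant members varied less. Cd36 had 598 and 513 FPKM in the WT pair, 448 in S265A, 628 in S265D and 452 in S265D-H1120Y, so that the S265A and S265D values enclosed the WT pair. Fabp4 was 23908 in S265A and 22872 in S265D, both between the WT samples, and 14128 in S265D-H1120Y. Lpl was 508, 793 and 569 in the 3 mutants in this order, also between the WT samples. Angptl4 (WT 233 and 336) was 210 in S265A, 259 in S265D and 157 in S265D-H1120Y. Fabp5 (WT 2505 and 1754) was 1898, 1828 and 1142, and Slc27a4 (WT 21.7 and 16.7) was 23.3, 19.6 and 20.4. Only S265D-H1120Y lay below both WT samples in Fabp5, and in Angptl4 it lay below all other day 8 samples with ROS.

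**Figure D3:**
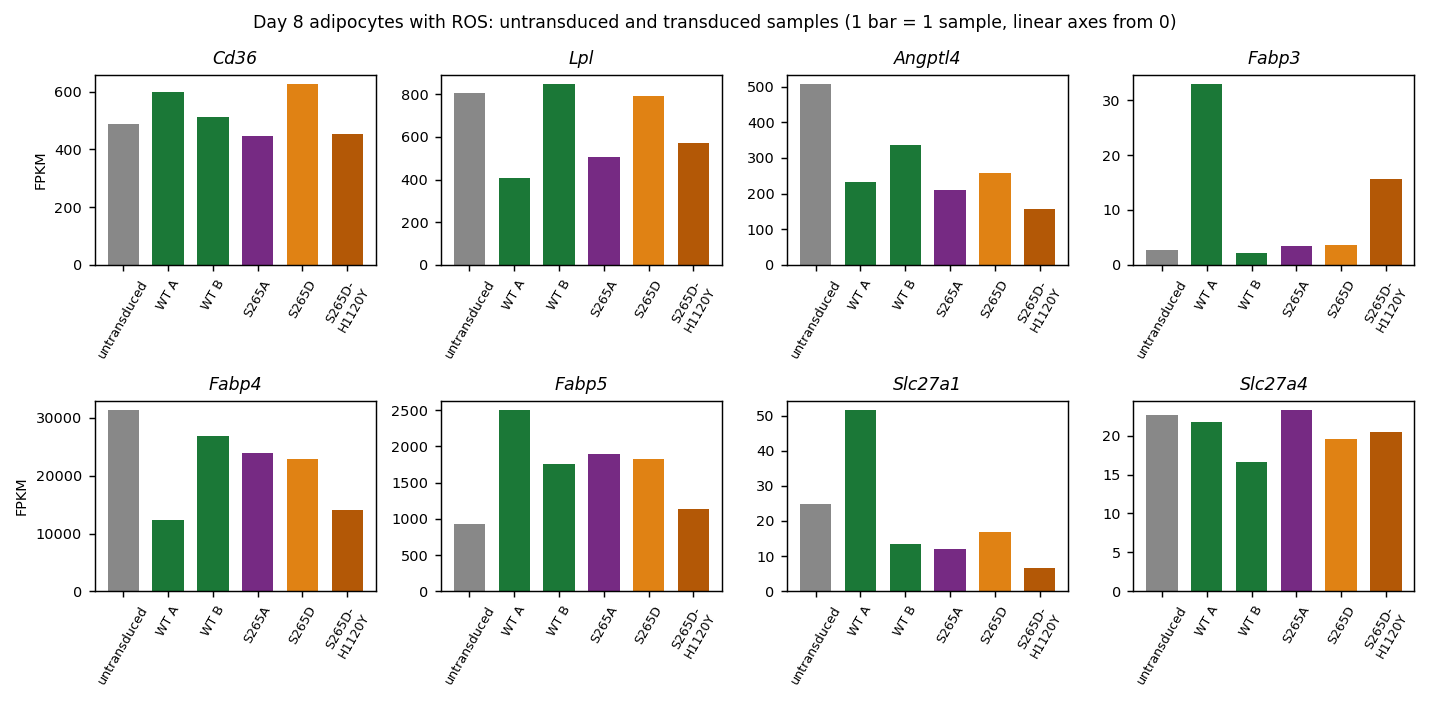
Bars give the FPKM of the 8 expressed genes in the untransduced day 8 sample with ROS (grey) and in the transduced samples, 1 bar per sample on linear axes that start at 0. Fabp3 and Slc27a1 are highest in WT A, and WT A and WT B differ by 2-fold or more in Fabp3, Slc27a1, Lpl and Fabp4.

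By the 2-fold rule, 2 of 8 members were lower in S265A than in the WT mean (Fabp3 and Slc27a1), beside 6.4% of 15681 genes, and none was higher, beside 3.49%. In S265D, 1 member was lower (Fabp3), beside 4.56% of 15748 genes, and none was higher, beside 4.11%. In S265D-H1120Y against S265D, 1 member was higher (Fabp3), beside 5.62% of 15760 genes, and 1 was lower (Slc27a1), beside 8.66%. Without WT A, no member was 2-fold apart from WT in S265A or S265D. Of all genes, 797 were then 2-fold higher and 1248 lower of 15706 for S265A. For S265D they were 830 and 688 of 15734. With 8 members, a count of 0 beside such shares is not a result about the members. Limma, with the spread from the WT pair, called 0 genes in each comparison: 107 genes had an unadjusted p under 0.05 for S265A against WT, 99 for S265D against WT and 187 for S265D-H1120Y against S265D, and the smallest adjusted p was 1 in all of them. Apart from Fabp3 and Slc27a4, the 6 remaining members were 0.392 to 0.721 times S265D in S265D-H1120Y. Set beside the ratios of WT A over WT B, these were farther from 1 for Cd36, Fabp5 and Angptl4 and nearer to 1 for Lpl, Fabp4 and Slc27a1. Only Slc27a1 of the 6 was past 2-fold. The share of all genes with such ratios was not counted, so this number of members cannot be read as a result.

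**Figure D4:**
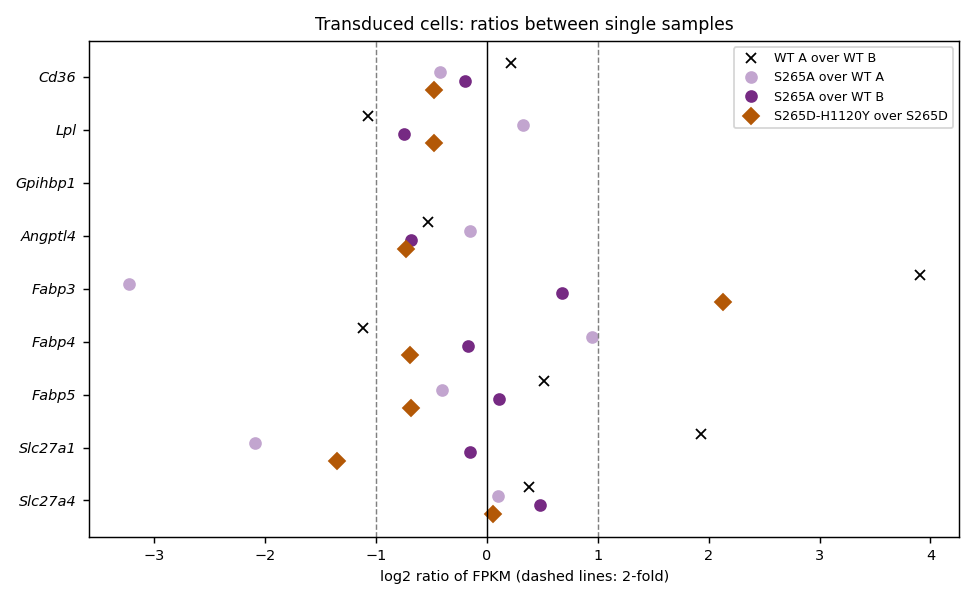
Each row shows log2 ratios of FPKM between single transduced samples: WT A over WT B (cross), S265A over WT A (light circle) and over WT B (dark circle), and S265D-H1120Y over S265D (diamond), with dashed lines at 2-fold. For Fabp3 the ratio of S265A is −3.23 against WT A and 0.68 against WT B, on opposite sides of 0, and Gpihbp1 has no ratio.

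Marker sums differed between the transduced samples too, and like Fabp3 and Slc27a1 the adipocyte, beige, muscle and hepatocyte sums were highest in WT A. The adipocyte sum was 3705 FPKM in WT A, 2450 in WT B, 2713 in S265A, 2374 in S265D and 1687 in S265D-H1120Y. The hepatocyte sum was 4.01 in WT A. The endothelial and macrophage sums were highest in S265D-H1120Y, at 4.05 and 22.0. The beige marker sum came to 201 FPKM in WT A against 26.9 in WT B, and to 46.8 in S265A, 164 in S265D and 91.1 in S265D-H1120Y. The striated muscle sum, nearly all of it Mb (myoglobin), was highest in WT A at 15.7 and lay between 3.66 and 8.02 in the other 4, with Myog, Myh4 and Ckm listed at 0 in all samples. The preadipocyte sum went from 136 in WT A to 553 in WT B, with 228 in S265A, 460 in S265D and 197 in S265D-H1120Y. The part of these differences in the members' values was not tested. Of the other pathway genes above an FPKM of 1, Ppara (12.1 FPKM in WT A, 1.83 in WT B), Rbp4 (192 and 14.9) and Pcsk6 (11.7 and 1.30), which encodes a protease, were among those 2-fold higher in WT A. Acsbg1 (0.145 and 5.63) was among those 2-fold lower. Against the WT mean, S265A was at 0.245 times for Ppara, 0.325 for Rbp4, 0.442 for Acsbg1 and 2.28 for Crabp1. In S265D the 2-fold differences were in Apoc1 (0.476 times), Pcsk6 (0.453) and Crabp1 (2.67). Rbp4 (33.6 FPKM) and Acsbg1 (1.27) in S265A and Pcsk6 (2.94) in S265D lay between the WT samples, so their direction depended on which one was used. Ppara in S265A (1.71) and Apoc1 in S265D (114) were next to WT B (1.83 and 113). Crabp1 was above both WT samples (0.217 and 0.695) in S265A (1.04) and S265D (1.22). S265D-H1120Y was at 0.387 times S265D for Apoc2, 0.269 for Rbp4, 0.420 for Ppara and 2.22 for Slc27a3, which encodes a further transport protein.

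Over all 11 samples, the profiles of the members were compared with those of 13615 genes that reached an FPKM of 1, by the root mean square difference of log2(FPKM + 0.1) after centring each gene on its mean. Of the pairs within the set, Lpl and Fabp4 were the closest, at 0.57, and Cd36 and Fabp3 the farthest, at 4.29. The nearest genes to Cd36 were Mrap (0.59), Plin1, which coats the lipid droplet (0.65), and Adig (0.76). Those to Fabp4 were Pnpla2, the adipose triglyceride lipase (0.54), AK170106 (0.56) and Lpl. AK170106 (chr8:71404457-71408402) was also nearest to Lpl (0.12), but it overlaps that gene, so reads of the pair cannot be told apart. Pde3b, the phosphodiesterase of insulin signalling, came next (0.41), then Serpina3n (0.46).

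The profile of Fabp5 was nearest to Abhd3 (0.35), B3galt1 (0.38) and Pex16 (0.38), and that of Angptl4 to 4930523C07Rik (0.28), Tapt1 (0.30) and Slc24a6 (0.31). Slc27a4, with its flat profile, had the closest neighbours, Setd3 (0.09), BC052040 (0.09) and Uxt (0.10). Slc27a1 was nearest to Acot11 (0.40), Cln3 (0.41) and Syce2 (0.44), which were likewise highest in WT A. Acot11 was at 1.10 FPKM there and at most 0.176 in every other sample, where the pseudocount of 0.1 flattens its profile. Cln3 was low too, at 3.22 in WT A and at most 1.08 elsewhere. The genes closest to Fabp3 were farther off, Oscar (1.28), Cyp2c70 (1.41) and Ucp3 (1.41), the last at 9.37 FPKM in WT A and 2.88 in WT B. All profiles share the same libraries and, for most members, the large step from day 0, so these distances are a description.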

How the data were processed

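Total RNA was extracted with ISOGEN, and TruSeq libraries were sequenced on an Illumina HiSeq. The authors mapped reads by Burrows-Wheeler alignment against the mm9 genome and UCSC transcripts, chose the best hit by edit distance, realigned reads and deposited FPKM per transcript and strand, not pooled. The deposited signal column gives mapped bases, which are not read counts, so no count test was used. How reads that match several genes were treated is not given in the sources used here.

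Sense rows marked representative were used. Groups came from the sample labels. Genes needed an FPKM of at least 0.1 in a compared sample. limma 3.58.1 (R 4.3.3) was run on log2(FPKM + 0.1), which understates changes of low genes, with Benjamini-Hochberg adjustment at 0.05, over all genes. The time course had 6 samples in 5 groups and the transduced set 5 in 4, each with 1 residual degree of freedom. On data simulated for day 8 against day 0, all 200 genes changed by design were called, with 2 false calls over 15471 genes. The simulation gave every gene the same small spread and put large changes only in well-expressed genes. In the real samples the spread differs between genes, so the simulation does not give the power or error rate of the real calls. Single samples were compared by FPKM ratio at 2-fold without a pseudocount, after the study's definition. Python 3.11.15, numpy 2.4.6, pandas 2.3.3 and matplotlib 3.10.9 were used. Alternatives changed the pseudocount, minimum, transcript, scaling, fit and samples, or added the ROS label as a block. At 3.10 to 5.29 Gb per sample, an FPKM below 0.1 rests on few reads.

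Members, gene lists, marker lists and naming rules (listed genes with the largest tested changes, or 2-fold with an FPKM of at least 1; 3 nearest profiles per member) were chosen with earlier results of these data known. One gene of the lists is not reported here.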

Additional observations from a re-analysis of the deposited data

Results flagged for a closer look

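The antisense rows of the files were outside the comparisons, and 5 members had signal there that was above both day 0 samples in every later sample. The share of all antisense rows that do so was not counted, so this number of members cannot be read as a result. The antisense row of Fabp4 reached 23.6 FPKM in WT B (highest at day 0, 0.334), that of Fabp5 7.47 in S265A (day 0, 0.292), and that of Lpl 2.95 at day 4 without ROS (day 0, 0.0739). That of Cd36 was listed at 0 at day 0 and lay between 0.0711 and 0.448 later, and that of Angptl4 was at most 0.0112 at day 0 and between 0.0381 and 0.334 later. For Fabp4 the antisense signal was 0.0525% to 0.135% of the sense FPKM in each of the 11 samples. In the samples after day 0 it was 0.0250% to 0.0875% for Cd36 and 0.0265% to 0.0988% for Angptl4. For Fabp5 it was 0.394% in S265A and at most 0.228% elsewhere, and for Lpl it was 0.0456% at day 4 with ROS and between 0.241% and 0.566% in the other samples.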

How the results depend on the processing

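For days 8 and 4 against day 0, limma called 8491 and 7169 genes. A fit of all 11 samples called 2556 and 1454, and leaving out either day 0 sample there gave 0 to 0, where the spread comes from WT A and WT B alone. A time-course fit with the ROS label of each sample, day 0 included, as a block was added after seeing the data. It has 2 residual degrees of freedom, took ROS effects that differ between days as spread, and called 6988 and 5523, and Angptl4 at both days, Slc27a1 at day 8 and Fabp3 and Slc27a4 at day 4 lost the call. For ROS at day 8 limma called 0 genes (5011 unadjusted), but 895 with a minimum FPKM of 1, where fewer genes were tested. Over days 4 and 8 it called 0 throughout. The number of 2-fold genes fell when 1 was added to each FPKM and with a minimum FPKM of 1. It went from 2988 to 851 and 1529 for ROS at day 8, from 1022 to 39 and 174 for ROS at day 4, from 1551 to 210 and 502 for S265A, from 1365 to 189 and 389 for S265D, and from 2250 to 504 and 957 for S265D-H1120Y. With 1 WT sample left out it was 2045 to 2984 for S265A and 1518 to 3283 for S265D, highest without WT B. Fabp3 reversed to 0.68 in S265A and 0.70 in S265D (log2 ratios) without WT A, whereas it was −3.23 and −3.20 without WT B, and to 0.23 (log2 change, adjusted p = 0.140) at day 8 against day 0 with a pseudocount of 1. Slc27a4 turned from −0.07 to 0.12 (adjusted p = 0.553) for ROS at day 8 with median-of-ratios scaling, which shifts all genes of a sample alike. Of the members' tested changes under settings that left out no sample, 353 of 389 kept direction and side of the threshold, 25 lost the call, 9 gained it and 2 reversed. These include the ROS contrasts, where no member was called at the main settings and a kept result is mostly a kept non-call. Another minimum FPKM or the fit of all 11 samples leaves the log2 change as it was, so direction could not turn there. The 353 therefore do not measure how robust the calls were. Depth limits Gpihbp1, Slc27a2 and the low values of Fabp3 and Cd36. The groups compared share fewer than 2 replicate numbers, so no block of replicate numbers was possible.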
